A study of Mus musculus with 15 samples.

Results

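The insulin-like growth factor (IGF) family is described here by 10 genes: the ligands Igf1 and Igf2, the receptors Igf1r and Igf2r, and the binding proteins Igfbp2, Igfbp3, Igfbp4, Igfbp5, Igfbp6 and Igfbp7. They were taken by name from the 18718 genes that had a row annotated to exactly 1 symbol, and each of the 10 had 1 such row. RNA was measured in mesenchymal stromal cells of C57BL/6 mice aged 2 weeks, on 15 arrays. All cells were sorted as PDGFRβ-positive after digestion of the organ with liberase and DNase I. They formed 5 populations with n = 3 arrays each: PDPN+BP3- and PDPN- cells of the thymus, and PDPN+BP3-, PDPN+BP3+ and PDPN- cells of the lymph node. PDPN is podoplanin, BP3 is encoded by Bst1, and the PDPN- cells of both organs were additionally Ly51-positive. Each array held RNA pooled from 3 mice for thymus and from 10 to 11 mice for lymph node (inguinal, brachial and axillary nodes together). Pool size and organ therefore cannot be told apart. The 3 arrays of a population are labelled biological replicates. Whether same-numbered arrays of an organ shared a pool was not tested. The labels name no transgene, deletion or treatment.

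IGF-I and IGF-II are small secreted growth factors that signal through the tyrosine kinase receptor encoded by Igf1r. Igf2r encodes the cation-independent mannose 6-phosphate receptor, which takes up IGF-II and delivers it to lysosomes. The binding proteins hold IGFs outside the cell, and proteases that cut them set the ligand free. Mesenchymal cells are a local source of IGFs and of their binding proteins in many organs. Igf2 and Igf2r are imprinted, so that one parental copy is the main source of RNA in most mouse tissues.

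Values are log2 RMA signals, which set one gene's level side by side between arrays but not one gene's level against another's. A comparison is called here where the adjusted p of the limma fit is below 0.05, differences are given ± the standard error of that fit, and means are given ± SD over n = 3 arrays. The median of the whole table was 3.8, and a mean below it need not stand above background. A difference from such a mean is a difference of signal only. Where 1 population is lower, fewer cells of a type and less RNA per cell cannot be told apart in sorted bulk RNA.

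The labels were set beside the RNA of the sort antigens and of marker genes. Pdpn means were 8.16 to 9.11 in the PDPN+ populations and 3.01 and 3.41 in the PDPN- ones. The Bst1 mean was 8.74 in PDPN+BP3+ cells and 2.18 to 3.3 elsewhere. Enpep, which encodes Ly51, averaged 8.07 in thymus and 7.69 in lymph node PDPN- cells, and 3.74 to 4.61 elsewhere. Pdgfrb, which encodes PDGFRβ, averaged 10.61 in thymus and 10.33 in lymph node PDPN- cells, and 8.94 to 9.01 elsewhere. Pericyte markers averaged 9.36 to 10.06 on the PDPN- arrays and 6.03 to 7.46 on the others. Fibroblast markers averaged 9.39 to 10.08 on the PDPN+BP3- arrays of both organs, 7.06 to 7.28 in PDPN+BP3+ cells, 6.56 to 6.65 in lymph node PDPN- cells and 4.82 to 5.18 in thymus PDPN- cells. Lymphoid stroma markers were highest in PDPN+BP3+ cells, at 8.64 to 8.82. T lineage markers averaged 3.31 to 4.65 in thymus PDPN+BP3- cells and 4.78 to 5.27 in thymus PDPN- cells, with 7 of 9 markers above the table median in each. In the lymph node populations the same list averaged 2.56 to 2.76, with 0 of 9 above it. Epithelium markers averaged 3.49 to 4.3 in thymus PDPN+BP3- and 4.28 to 4.73 in thymus PDPN- cells, with 2 of 8 and 4 of 8 above the table median. In the lymph node populations they averaged 2.73 to 2.93, with 1 of 8 above it in each. By array median, replicate 1 of thymus PDPN+BP3- cells stood apart at 3.58, the remaining 14 lying at 3.77 to 3.885.

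The 250 bases before a start site are shown for the 3 members whose level set the populations apart most (Igf2, Igfbp6 and Igfbp2) and for Igf1, which was high in every PDPN+ population. They are RefSeq sequences of build GRCm38.p6, read 5′ to 3′ on the strand of the gene. For Igf2 the fourth of 4 starts in the 5′ to 3′ order is shown, and for Igfbp2 the first of 2; in each gene this is the start with the most GGGCGG matches, chosen after the matches were counted. Capitals mark TATAAA or GGGCGG on either strand (TTTATA and CCGCCC on the other).
Igf2, chr7:142657497-142657746, minus strand: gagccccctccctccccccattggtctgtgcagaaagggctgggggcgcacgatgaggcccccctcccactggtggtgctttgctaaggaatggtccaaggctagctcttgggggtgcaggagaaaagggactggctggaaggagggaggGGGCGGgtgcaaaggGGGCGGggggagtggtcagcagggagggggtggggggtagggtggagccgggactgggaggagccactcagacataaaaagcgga
Igfbp6, chr15:102143936-102144185, plus strand: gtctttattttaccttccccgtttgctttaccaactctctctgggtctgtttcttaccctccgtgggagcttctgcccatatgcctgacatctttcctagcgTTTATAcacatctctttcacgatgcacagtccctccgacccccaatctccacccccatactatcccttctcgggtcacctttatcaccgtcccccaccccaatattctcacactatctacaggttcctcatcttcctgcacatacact
Igfbp2, chr1:72824230-72824479, plus strand: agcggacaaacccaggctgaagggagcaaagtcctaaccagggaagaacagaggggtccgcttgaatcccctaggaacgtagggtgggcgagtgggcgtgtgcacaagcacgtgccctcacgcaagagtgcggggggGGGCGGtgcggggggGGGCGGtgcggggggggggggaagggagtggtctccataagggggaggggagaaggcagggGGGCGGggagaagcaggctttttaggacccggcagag
Igf1, chr10:87860861-87861110, plus strand: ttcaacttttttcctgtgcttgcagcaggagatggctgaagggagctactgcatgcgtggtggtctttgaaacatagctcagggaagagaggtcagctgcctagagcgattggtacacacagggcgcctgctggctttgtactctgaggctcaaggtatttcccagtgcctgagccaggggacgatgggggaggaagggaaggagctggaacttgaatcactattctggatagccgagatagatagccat

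The sequences differed in these motifs and in CpG content. TATAAA was found in 1 of these 4, that of Igfbp6, and in 12.4% of the 32851 promoters of the same length. GGGCGG was found 2 times before the Igf2 start shown and 3 times before the Igfbp2 start shown, and in 32.7% of all promoters. Before the other Igf2 starts it was found 0, 0 and 1 times, in sequences with 1, 10 and 22 CpG pairs, and before the other Igfbp2 start 0 times, with 11 CpG pairs. The Igf1 sequence held neither. Among the sequences shown, CpG pairs numbered 6 for Igf2, 7 for Igfbp6, 14 for Igfbp2 and 5 for Igf1, against a median of 6 over all promoters. The arrays do not tell which start was used, and a match is a description of the letters only.

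Among the ligands, Igf1 was high in every podoplanin-positive population and low in both podoplanin-negative ones. It measured 8.07, 8.38 and 8.0 in thymus PDPN+BP3- cells, against 4.55, 4.28 and 4.93 in thymus PDPN- cells. In the lymph node it measured 8.98, 8.84 and 8.55 in PDPN+BP3- cells, 8.66, 8.73 and 8.58 in PDPN+BP3+ cells, and 5.09, 5.25 and 4.73 in PDPN- cells. No PDPN+ array overlapped with a PDPN- array. PDPN+BP3- minus PDPN- cells gave 3.56 ± 0.17 in thymus (adjusted p = 1.02e-10) and 3.77 ± 0.17 in lymph node (adjusted p = 8.01e-11). PDPN+BP3+ cells exceeded PDPN- cells by 3.63 ± 0.17 (adjusted p = 9.78e-11). In the order of levels, the arrays of the podoplanin-positive lymph node populations overlapped, as did those of the PDPN- cells of both organs. Between the PDPN+BP3- populations Igf1 was higher in lymph node by 0.64 ± 0.17 (adjusted p = 0.0172), but this call was lost after quantile normalisation (0.52, adjusted p = 0.0579), after cyclic loess normalisation (0.42, adjusted p = 0.142) and without 1 of several arrays (thymus replicate 1 or 3, lymph node replicate 1 or 2, adjusted p 0.0569 to 0.0786).

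Igf2, the imprinted fetal growth factor, followed another order, with the highest level in thymus PDPN+BP3- cells and a level below the table median in lymph node PDPN+BP3+ cells. It measured 9.0, 9.41 and 9.41 in thymus PDPN+BP3- cells and 7.38, 7.34 and 7.15 in thymus PDPN- cells. In lymph node PDPN+BP3- cells it measured 7.50, 7.95 and 8.08, and in lymph node PDPN- cells 6.89, 7.14 and 7.29. The PDPN+BP3+ arrays were at 3.16, 3.52 and 3.23, at least 3 log2 units below every other array. The PDPN- cells of the organs were the only neighbours in this order whose arrays overlapped. In limma, Igf2 was lower in PDPN+BP3+ than in PDPN+BP3- cells of the lymph node by 4.54 ± 0.17 on the log2 scale (adjusted p = 1.03e-11), which placed it 19 from the lowest among 18718 genes. It was also lower there than in PDPN- cells, with a log2 difference of -3.80 ± 0.17 (adjusted p = 3.4e-11).

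Thus the ligands parted in lymph node PDPN+BP3+ cells, where Igf1 was at 8.66 ± 0.08 and Igf2 at 3.30 ± 0.19. Each gene is read here against its own level in the other populations. In PDPN+BP3- cells of the lymph node, Igf1 was at 8.79 ± 0.22 and Igf2 at 7.84 ± 0.30. PDPN- cells held Igf2 without the high Igf1 signal of PDPN+ cells: in thymus Igf2 was at 7.29 ± 0.12 and Igf1 at 4.59 ± 0.33, and in lymph node Igf2 was at 7.11 ± 0.20 and Igf1 at 5.02 ± 0.27. Igf1 was still above the table median on every PDPN- array. Between the PDPN+BP3- populations, Igf2 was lower in lymph node, with a log2 difference of -1.43 ± 0.17 (adjusted p = 1.14e-05). The PDPN- populations of lymph node and thymus differed by -0.18 ± 0.17 in Igf2 (95% interval -0.54 to 0.17, adjusted p = 0.616).

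**Figure D1:**
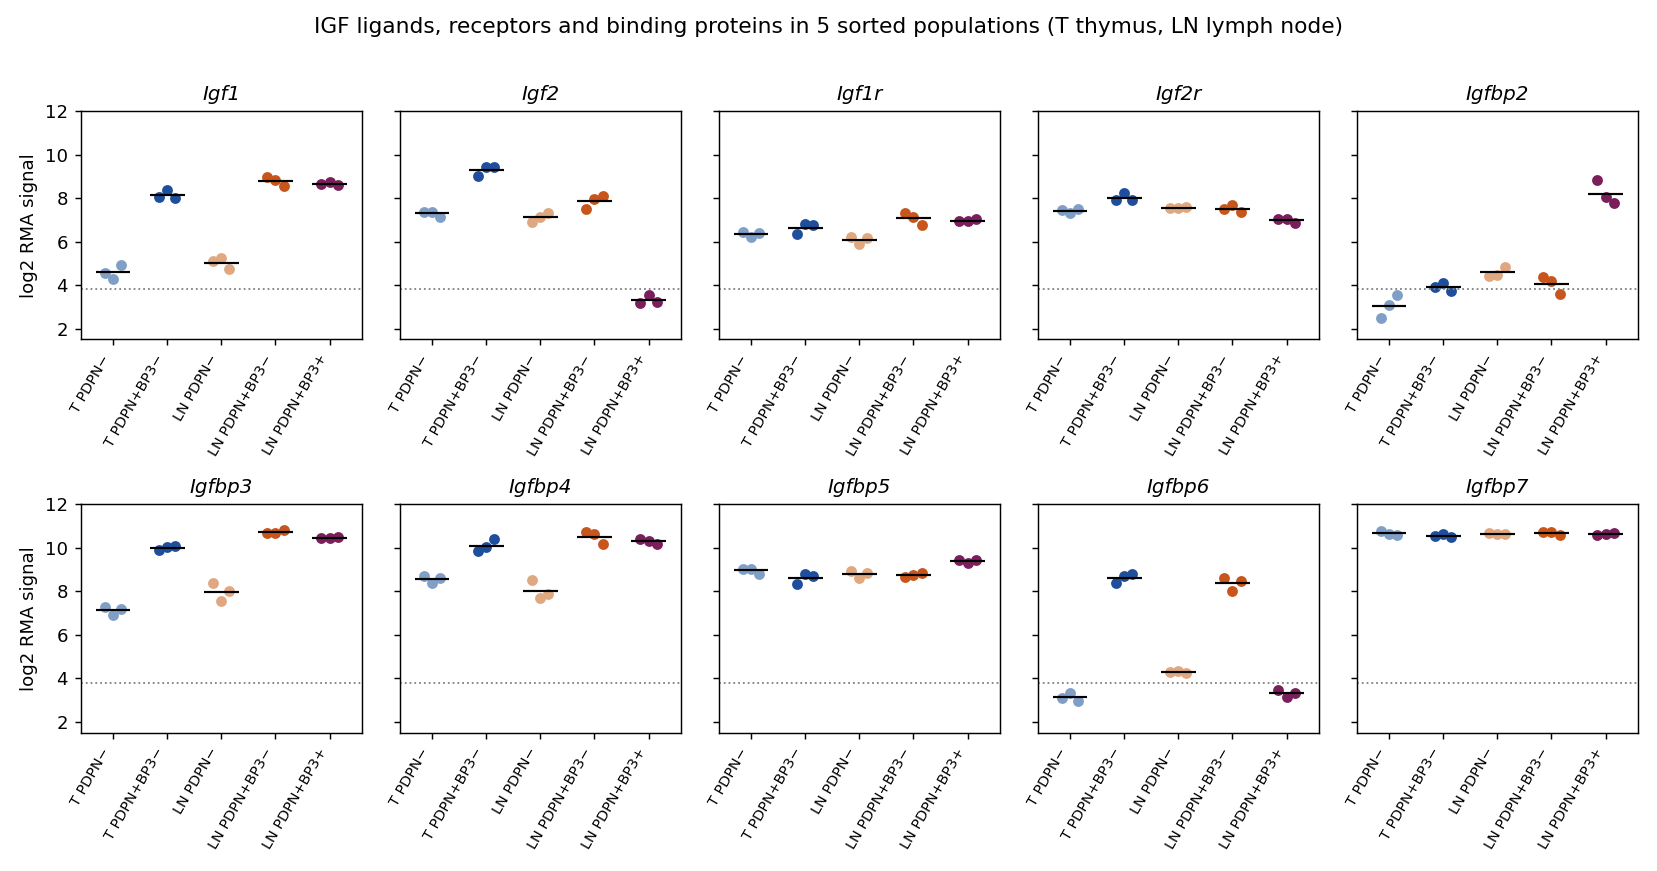
Log2 RMA signal (y axis) of the 10 IGF family genes in the 5 sorted populations (x axis; T, thymus; LN, lymph node); points are arrays, black bars are means of 3 arrays and the dotted line is the table median of 3.8. Igf1 is high in the 3 PDPN+ populations, Igf2 and Igfbp6 fall below the dotted line in lymph node PDPN+BP3+ cells, Igfbp2 is high there, and Igfbp7 stays between 10.48 and 10.75 on all 15 arrays.

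The receptors varied less than the ligands. Igf1r means spanned 0.98 over the populations and Igf2r means 1.04, and 21.8% and 20.3% of all genes had a larger span. Igf1r, the signalling receptor, measured 7.30, 7.11 and 6.77 in lymph node PDPN+BP3- cells and 6.93, 6.95 and 7.02 in PDPN+BP3+ cells, against 6.23, 5.88 and 6.14 in lymph node PDPN- cells. It was higher than in PDPN- cells by 0.98 ± 0.15 in PDPN+BP3- cells (adjusted p = 9.92e-05) and by 0.88 ± 0.15 in PDPN+BP3+ cells (adjusted p = 0.000242). In thymus its arrays overlapped, at 6.36, 6.81 and 6.74 in PDPN+BP3- and 6.46, 6.23 and 6.37 in PDPN- cells. The thymus difference of 0.28 ± 0.15 did not pass (adjusted p = 0.184) but passed after quantile (0.44, adjusted p = 0.0104) and cyclic loess normalisation (0.53, adjusted p = 0.00364).

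Igf2r, the clearance receptor for IGF-II, was highest where Igf2 was highest and lowest where Igf2 was lowest. It measured 7.92, 8.24 and 7.89 in thymus PDPN+BP3- cells and 7.03, 7.04 and 6.86 in lymph node PDPN+BP3+ cells. The populations between these were at 7.31 to 7.67 on all 9 arrays. In limma the PDPN+BP3- cells of the thymus exceeded its PDPN- cells by 0.60 ± 0.12 (adjusted p = 0.000877). In lymph node PDPN+BP3+ cells it differed from PDPN+BP3- cells by -0.54 ± 0.12 (adjusted p = 0.00337) and from PDPN- cells by -0.58 ± 0.12 (adjusted p = 0.00123). The lower level in lymph node than in thymus PDPN+BP3- cells (-0.50 ± 0.12, adjusted p = 0.00665) did not pass when only the arrays compared entered the fit (adjusted p = 0.058).

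Of the binding proteins, Igfbp6, which prefers IGF-II, set the PDPN+BP3- cells of both organs apart. It measured 8.38, 8.71 and 8.79 in thymus PDPN+BP3- cells and 8.62, 8.0 and 8.48 in lymph node PDPN+BP3- cells. In thymus PDPN- cells it measured 3.11, 3.33 and 2.95, in lymph node PDPN+BP3+ cells 3.45, 3.13 and 3.32, and in lymph node PDPN- cells 4.29, 4.34 and 4.25. The 6 PDPN+BP3- arrays thus lay more than 3 log2 units above the other 9. The difference from PDPN- cells was 5.50 ± 0.16 in thymus (adjusted p = 2.68e-13), place 19 from the highest of 18718 genes, and 4.07 ± 0.16 in lymph node (adjusted p = 1.02e-11), place 53. PDPN+BP3+ cells were lower than PDPN+BP3- cells of the lymph node by a log2 difference of -5.07 ± 0.16 (adjusted p = 1.99e-12), place 13 from the lowest. The PDPN+BP3- cells of the organs overlapped, with a difference of -0.26 ± 0.16 (95% interval -0.60 to 0.08, adjusted p = 0.313). Among PDPN- cells, Igfbp6 was higher in lymph node by 1.16 ± 0.16 (adjusted p = 0.000111).

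Igfbp2, a binding protein that also carries an integrin-binding motif, was high in lymph node PDPN+BP3+ cells. It measured 8.81, 8.05 and 7.76 there, and 4.36, 4.20 and 3.60 in lymph node PDPN+BP3- cells. The other populations were at 4.43, 4.46 and 4.84 (lymph node PDPN-), 3.90, 4.11 and 3.73 (thymus PDPN+BP3-) and 2.47, 3.06 and 3.54 (thymus PDPN-). No array outside the PDPN+BP3+ population came above 4.84. PDPN+BP3+ cells exceeded PDPN+BP3- cells of the lymph node by 4.15 ± 0.28 (adjusted p = 1.33e-08), place 13 from the highest of 18718 genes, and PDPN- cells by 3.63 ± 0.28 (adjusted p = 3.65e-08). In thymus, the excess of 0.89 ± 0.28 in PDPN+BP3- cells (adjusted p = 0.0248) came from means of 3.91 and 3.02 around the table median. That call was lost without thymus PDPN+BP3- replicate 1 or 2 or without thymus PDPN- replicate 1 or 2 (adjusted p 0.0559 to 0.144). Among PDPN- cells Igfbp2 was higher in lymph node by 1.55 ± 0.28 (adjusted p = 0.00142).

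Igfbp3, the main carrier of IGFs in blood, and Igfbp4, which restrains IGF action until it is cut, were both high in all PDPN+ cells. Igfbp3 measured 9.91, 10.02 and 10.07 in thymus PDPN+BP3- cells and 7.29, 6.92 and 7.18 in thymus PDPN- cells. In the lymph node its PDPN+BP3- arrays were at 10.67 to 10.83, its PDPN+BP3+ arrays at 10.45 to 10.49 and its PDPN- arrays at 7.57 to 8.39. Its difference from PDPN- cells was 2.87 ± 0.16 in thymus (adjusted p = 5.37e-10), and in lymph node 2.74 ± 0.16 for PDPN+BP3- (adjusted p = 1.43e-09) and 2.48 ± 0.16 for PDPN+BP3+ cells (adjusted p = 4.16e-09). No neighbouring pair in its order of 5 levels overlapped. Igfbp3 was also higher in lymph node than in thymus, by 0.73 ± 0.16 in PDPN+BP3- cells (adjusted p = 0.00437) and by 0.85 ± 0.16 in PDPN- cells (adjusted p = 0.00199).

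Igfbp4 measured 9.84, 10.05 and 10.38 in thymus PDPN+BP3- cells and 8.71, 8.37 and 8.59 in thymus PDPN- cells. In lymph node it measured 10.71, 10.62 and 10.16 in PDPN+BP3- cells, 10.42, 10.33 and 10.17 in PDPN+BP3+ cells and 8.52, 7.69 and 7.89 in PDPN- cells. All 9 PDPN+ arrays lay above all 6 PDPN- arrays, while the 3 PDPN+ populations overlapped with their neighbours in the order. The difference from PDPN- cells was 1.53 ± 0.20 in thymus (adjusted p = 1.8e-05), and in lymph node 2.46 ± 0.20 for PDPN+BP3- (adjusted p = 8.76e-08) and 2.27 ± 0.20 for PDPN+BP3+ cells (adjusted p = 2.11e-07).

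Igfbp5, which binds to matrix, and Igfbp7, which has low affinity for IGFs, varied least among the binding proteins. Igfbp5 measured 9.45, 9.30 and 9.42 in lymph node PDPN+BP3+ cells, above all other arrays, which lay between 8.32 and 9.04. It was higher there by 0.65 ± 0.13 than in PDPN+BP3- cells (adjusted p = 0.00209) and by 0.61 ± 0.13 than in PDPN- cells (adjusted p = 0.00207). Igfbp5 is the neighbour of Igfbp2 in the RefSeq gene order, and both were highest in PDPN+BP3+ cells, with spans of the population means of 0.77 and 5.18. Igfbp7 was at 10.48 to 10.75 on all 15 arrays. Its population means spanned 0.14, 91.8% of all genes had a larger span, and no difference among the populations passed the F test of limma (adjusted p = 0.699).

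Of the 10 members, 9 (all but Igfbp7) differed among the populations by the F test, against 45.3% of all genes. That share includes genes of low signal: 10660 of the 18718 genes, and all 10 members, were above the table median. Igfbp1, outside the 10 members, did not pass the F test (adjusted p = 0.32). In thymus, PDPN+BP3- cells exceeded PDPN- cells in 7 members and were below them in 0, with a median difference of 1.21. Of all genes 28.5% were called in that comparison, 10.3% higher and 18.2% lower, with a median of -0.05. Lower calls were 64.0% of all calls, 55.0% after quantile and 45.0% after cyclic loess normalisation. Igf1r, Igfbp5 and Igfbp7 did not pass; Igfbp5 was at -0.34 ± 0.13 (adjusted p = 0.0668). T lineage markers moved beside this comparison, with 4 of 9 lower in PDPN+BP3- cells (2 of 9 without replicate 1 of these). Of the epithelium markers 4 of 8 were lower (1 of 8 without that array), and of the endothelium markers 2 of 9 were higher and 4 lower. All 8 fibroblast markers were higher and all 9 pericyte markers lower. The part of these cells in the members' differences was not tested.

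In lymph node, PDPN+BP3- cells exceeded PDPN- cells in 6 members and were below them in 0, against 23.1% of all genes called, 13.4% higher and 9.79% lower. These were Igf1, Igf2, Igf1r, Igfbp3, Igfbp4 and Igfbp6, and the median over the members was 0.86, against -0.01 over all genes. In PDPN+BP3+ cells, 6 members were higher than in PDPN- cells (Igf1, Igf1r, Igfbp2, Igfbp3, Igfbp4 and Igfbp5) and 3 were lower (Igf2, Igf2r and Igfbp6). The background was 27.3% of all genes, 16.1% higher and 11.2% lower, and the median size of the difference was 1.63 over the members and 0.20 over all genes. Both comparisons use the same 3 PDPN- arrays. Beside the PDPN+BP3- comparison, endothelium markers were higher for 4 of 9 and lower for 0, and myeloid markers higher for 3 of 8 and lower for 1. All 8 fibroblast markers were higher there and all 9 pericyte markers lower. Beside the PDPN+BP3+ comparison, 3 of 8 fibroblast markers were higher and 1 lower, and all 9 pericyte markers were lower. Endothelium markers were higher there for 1 of 9 and lower for 2, and myeloid markers higher for 2 of 8 and lower for 1. Lymphoid stroma markers were higher for 6 of 7 in the PDPN+BP3- and for 7 of 7 in the PDPN+BP3+ comparison. T lineage and epithelium markers gave 0 calls in either, and the part of the marker genes' cells in the members' differences was not tested.

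The direct comparison of the podoplanin-positive lymph node cells called 5 members. Relative to PDPN+BP3- cells, the PDPN+BP3+ cells were higher in Igfbp2 and Igfbp5, and Igf2, Igf2r and Igfbp6 were lower. Of all genes 16.2% were called, 8.49% higher and 7.74% lower. The other members gave differences of -0.26 to -0.05, each with a standard error of 0.09 to 0.20. Endothelium markers moved beside this comparison, with 6 of 9 lower in PDPN+BP3+ cells and array means of 3.26 to 3.49 against 4.07 to 4.48. All 8 fibroblast markers were lower, 5 of 7 lymphoid stroma markers were higher and 4 of 9 pericyte markers were higher. The part of these cells in it was not tested.

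Between organs, PDPN+BP3- cells differed in 4 members. Igf1 and Igfbp3 were higher and Igf2 and Igf2r were lower in lymph node, against 17.1% of all genes called, 11.8% higher and 5.29% lower. Lower calls were 30.9% of all calls, 49.3% after quantile and 54.3% after cyclic loess normalisation. PDPN- cells differed in 3 members, Igfbp2, Igfbp3 and Igfbp6, all higher in lymph node, against 9.61% of all genes, 4.42% higher and 5.19% lower. T lineage markers were lower in lymph node for 7 of 9 in the PDPN+BP3- and 8 of 9 in the PDPN- comparison. Epithelium markers were lower for 6 of 8 and 7 of 8, and endothelium markers were higher for 5 of 9 in the PDPN+BP3- comparison. Fibroblast markers were higher in lymph node for 6 of 8 and lower for 0 in the PDPN- comparison, with a median difference of 1.65, against 1 higher and 2 lower in the PDPN+BP3- one. Pericyte markers were higher for 7 of 9 and lower for 2 in PDPN+BP3- cells and lower for 4 of 9 in PDPN- cells. Lymphoid stroma markers were higher in lymph node for 5 of 7 in the PDPN+BP3- and 3 of 7 in the PDPN- comparison, and lower for 0. Myeloid markers were higher for 3 of 8 (1 of 8 without thymus PDPN+BP3- replicate 1) and for 1 of 8, and lower for 0. The part of the marker genes' cells in the differences between organs was not tested.

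The difference of the PDPN+BP3- from the PDPN- population was not the same in both organs for 6 members by the interaction term, against 12.7% of all genes, 8.67% with a term above 0 (larger in lymph node) and 4.05% with one below 0. These are sorted populations that differ in Ly51 as well as in podoplanin. Lower terms were 31.8% of all calls, 51.1% after quantile and 58.5% after cyclic loess normalisation. The difference was smaller in lymph node for Igf2 (0.74 against 1.98, term -1.25 ± 0.23, adjusted p = 0.00187), for Igf2r (-0.04 against 0.60, term -0.64 ± 0.17, adjusted p = 0.0178) and for Igfbp6 (4.07 against 5.50, term -1.42 ± 0.23, adjusted p = 0.000435). For Igfbp2 it went from 0.89 in thymus to -0.52 in lymph node, with a term of -1.41 ± 0.40 (adjusted p = 0.027). Both of these binding protein terms involve means around the table median. For Igfbp6 the PDPN- means were 3.13 in thymus and 4.29 in lymph node, while the PDPN+BP3- arrays of the organs overlapped. For Igfbp2 the PDPN+BP3- and PDPN- means were 3.91 and 3.02 in thymus and 4.05 and 4.58 in lymph node. The difference was larger in lymph node for Igf1r (term 0.69 ± 0.21, adjusted p = 0.0403) and for Igfbp4 (term 0.93 ± 0.29, adjusted p = 0.0423). The terms of Igf1r, Igfbp2 and Igfbp4 lay near the threshold, and the count fell to 3 without thymus PDPN- replicate 1 or without lymph node PDPN- replicate 3. For Igf1, whose difference was 3.77 in lymph node and 3.56 in thymus, the term was 0.20 ± 0.25 (95% interval -0.32 to 0.72, adjusted p = 0.674). Beside these terms, those of fibroblast markers were below 0 for 7 of 8 (median -1.83), those of pericyte markers above 0 for 8 of 9 (median 1.39) and those of endothelium markers above 0 for 4 of 9, and the part of these cells was not tested.

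**Figure D2:**
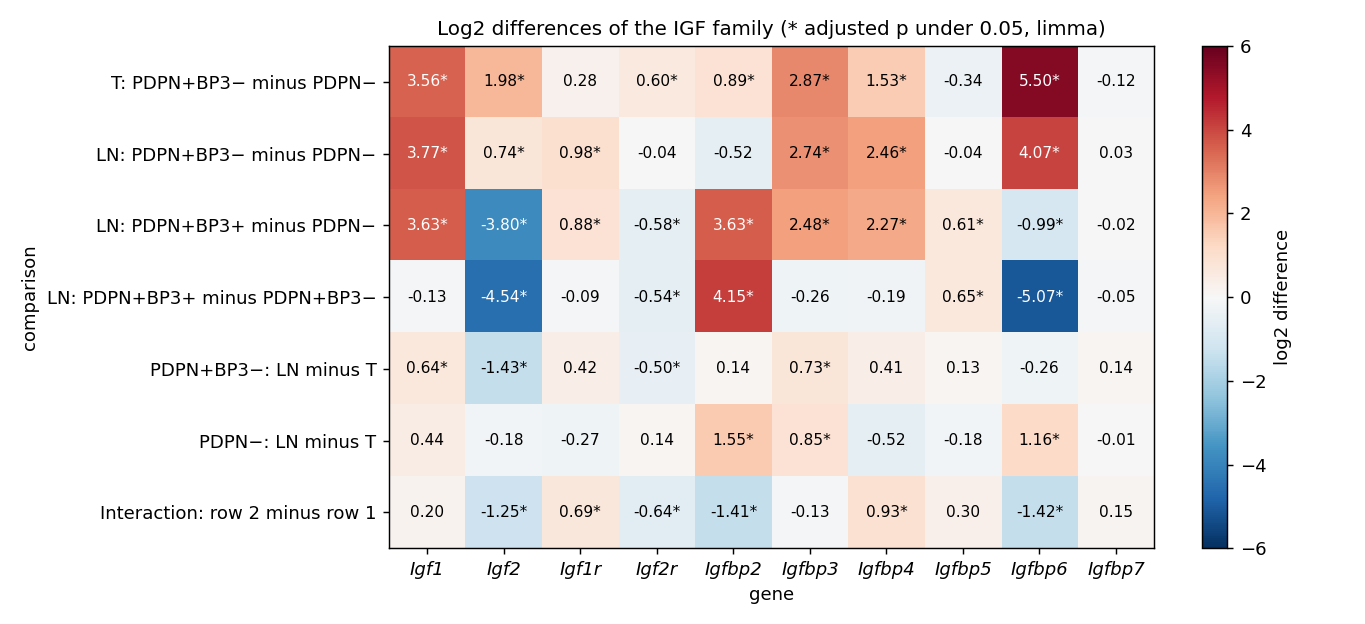
Log2 differences (colour and printed value) of the 10 genes (x axis) in the 6 pairwise comparisons and the interaction (y axis; T, thymus; LN, lymph node), n = 3 arrays per population; an asterisk marks an adjusted p below 0.05 in limma. The row for lymph node PDPN+BP3+ minus PDPN+BP3- cells holds 5 called members, led by -5.07 for Igfbp6, -4.54 for Igf2 and 4.15 for Igfbp2.

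The members did not share one pattern. After each gene's mean over the 5 populations was subtracted, the largest gap between the profiles of Igf1 and Igfbp3 was 0.74 log2 units, while that between Igf2 and Igfbp2 was 7.11. For each member whose means spanned at least 2 log2 units, the genes with the smallest such gap over the 5 populations were named. Those most like Igf1 were Scara3 (largest gap 0.36), Vegfc (0.41) and Mexis (0.44). Vegfc encodes a growth factor of lymphatic vessels. Those most like Igfbp3 were Zfpm2 (0.29), Epdr1 (0.31) and Slc10a6 (0.34), and those most like Igfbp4 were Ubtd2 (0.28), Gpx7 (0.31) and Tmed3 (0.33).

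For Igf2, whose means spanned 5.97, the nearest profiles were looser: Plat (0.94), which encodes tissue plasminogen activator, Pde7b (1.02) and Tmem100 (1.03). Nearest to Igfbp6 were Sfrp4 (0.64), a secreted Wnt antagonist, Sema3c (0.66) and Tspan11 (0.68). Nearest to Igfbp2 were the imprinted gene Nnat (0.58), the stanniocalcin gene Stc2 (0.60) and Madcam1 (0.60), the addressin bound by gut-homing lymphocytes. The Madcam1 mean was 7.39 in PDPN+BP3+ cells and 2.39 to 3.62 elsewhere. These gaps describe 5 population means each and carry no test.

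Outside the 10 members, few relatives of the family were measured above the table median. Of 8 further genes with a row, 2 passed the median in any population, the insulin receptor Insr and its relative Insrr. The 8 were insulin relatives and IGF-binding genes, together with Igf2bp1 and Igf2bp3, which encode proteins that bind Igf2 RNA. Insrr, an alkali-sensing receptor related to Igf1r, averaged 6.15 ± 0.29 in the PDPN+BP3+ population, 4.20 ± 0.43 in PDPN+BP3- cells of the same organ and 2.31 to 3.60 elsewhere. It was higher in PDPN+BP3+ than in PDPN+BP3- cells by 1.94 ± 0.23 (adjusted p = 1.16e-05). Igfbp1, the neighbour of Igfbp3 in gene order, averaged 2.41 to 2.66 in all populations.

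A list of 8 genes was set up for proteases of the binding proteins and their inhibitors. Whether each of them, Prss23 included, acts on a binding protein was not tested. Of the list 7 differed among the populations, against the 45.3% of all genes given above. Of these 8, 6 were higher and 1 was lower in PDPN+BP3- than in PDPN- cells in each organ. Median differences were 0.55 in thymus and 1.10 in lymph node, and of all genes 10.3% and 13.4% were higher in these comparisons. The genes counted were not the same in both organs. The inhibitor gene Stc1 was lower in thymus (-0.79 ± 0.19) and higher in lymph node (1.74 ± 0.19). The inhibitor gene Stc2 was higher in thymus (0.55 ± 0.15) and lower in lymph node (-0.90 ± 0.15). These Stc2 differences lay between means near or below the table median, 3.59 against 3.04 in thymus and 2.97 against 3.87 in lymph node. Pappa encodes pappalysin, which cuts Igfbp4. It measured 6.62, 6.94 and 6.89 in thymus PDPN+BP3- cells and 4.68, 4.38 and 4.30 in lymph node PDPN+BP3- cells, and its means elsewhere were 2.96 to 3.14. It was lower in lymph node than in thymus PDPN+BP3- cells, with a difference of -2.36 ± 0.16 (adjusted p = 2.85e-08). Htra3, a secreted serine protease of the HtrA family, exceeded its PDPN- level in PDPN+BP3- cells by 5.36 ± 0.15 in thymus (adjusted p = 1.73e-13) and by 3.89 ± 0.15 in lymph node (adjusted p = 7.61e-12).

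The stanniocalcins, which inhibit pappalysin, lay in different populations. Stc1 measured 7.50, 7.51 and 7.01 in lymph node PDPN+BP3- cells, and its means were 4.54 to 5.74 elsewhere. Stc2 measured 7.50, 7.35 and 7.36 in lymph node PDPN+BP3+ cells, and its means were 2.97 to 3.87 elsewhere. Stc1 was higher in lymph node than in thymus PDPN+BP3- cells by 2.80 ± 0.19 (adjusted p = 3.27e-08). Stc2 was higher in PDPN+BP3+ than in PDPN+BP3- cells of the lymph node by 4.43 ± 0.15 (adjusted p = 5.62e-12). In that comparison it was the 1 gene of the list that was higher, while 5 were lower (7.74% of all genes), among them the secreted protease gene Prss23 (-3.54 ± 0.22, adjusted p = 6.47e-09).

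**Figure D3:**
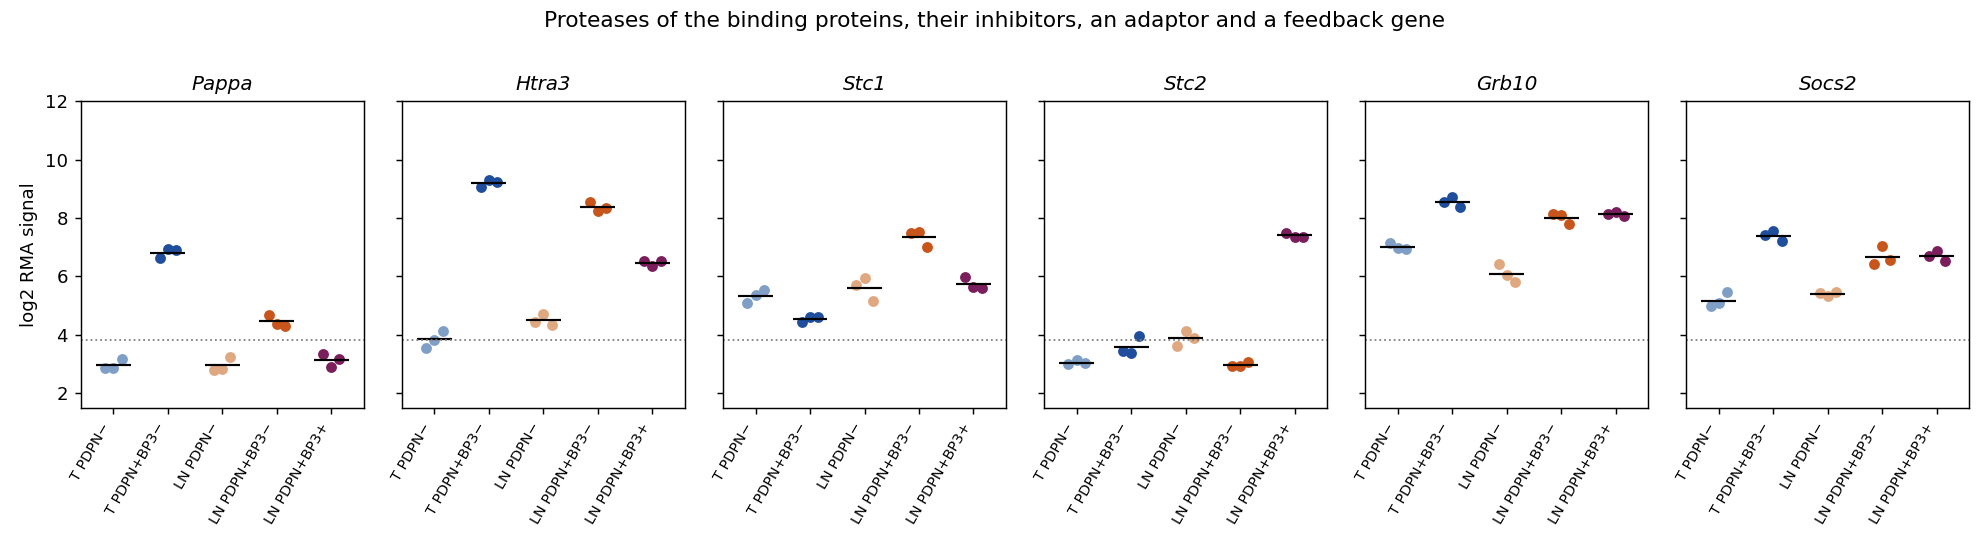
Log2 RMA signal (y axis) of 6 genes that act on binding proteins or IGF and growth hormone signalling, in the 5 populations (x axis; T, thymus; LN, lymph node); points are arrays, black bars are means of 3 arrays and the dotted line is the table median of 3.8. Pappa is highest in thymus PDPN+BP3- cells (mean 6.82), Stc1 in lymph node PDPN+BP3- cells (7.34) and Stc2 in lymph node PDPN+BP3+ cells (7.40).

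Inside the cell, adaptors link the receptors to the PI3K pathway. Of 9 receptor adaptors, 1 was higher and 3 were lower in thymus PDPN+BP3- than in PDPN- cells, and 2 were higher and 0 lower in lymph node. Over all genes 28.5% were called in thymus and 23.1% in lymph node, so the lymph node count is at the background. Grb10, an imprinted adaptor that dampens the insulin and IGF receptors, was higher by 1.53 ± 0.15 in thymus (adjusted p = 6e-07), and in lymph node by 1.92 ± 0.15 in PDPN+BP3- (adjusted p = 4.95e-08) and 2.05 ± 0.15 in PDPN+BP3+ cells (adjusted p = 1.89e-08). The substrate gene Irs1 was lower by a log2 difference of -0.73 ± 0.14 in thymus (adjusted p = 0.000651) and higher by 0.56 ± 0.14 in lymph node (adjusted p = 0.00652), with an interaction term of 1.29 ± 0.19 (adjusted p = 0.000291). Between organs, 5 adaptors were higher and 1 was lower in lymph node PDPN+BP3- cells, or 3 and 1 without thymus PDPN+BP3- replicate 1, against 17.1% of all genes called.

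Of 16 measured genes of the PI3K, AKT and mTOR pathway, 2 were higher and 7 lower in thymus PDPN+BP3- than in PDPN- cells, with a median difference of -0.43 (-0.24 without thymus PDPN+BP3- replicate 1). Of all genes 10.3% were higher and 18.2% lower in thymus. In lymph node 2 were higher and 2 lower, a share close to the 23.1% of all genes called there. The regulatory subunit gene Pik3r1 was lower in PDPN+BP3+ than in PDPN+BP3- cells, by -1.23 ± 0.12 (adjusted p = 1.24e-06). Of 8 genes of the growth hormone axis, which drives Igf1 in liver, 3 were higher and 1 lower (0 lower without thymus PDPN+BP3- replicate 1) in thymus PDPN+BP3- than in PDPN- cells, and 5 were higher and 0 lower in lymph node, against 28.5% and 23.1% of all genes called. The receptor gene Ghr was higher by 1.14 ± 0.18 in thymus (adjusted p = 0.000149) and by 1.02 ± 0.18 in lymph node (adjusted p = 0.000479). The feedback inhibitor gene Socs2 was higher by 2.22 ± 0.16 (adjusted p = 1.63e-08) and 1.26 ± 0.16 (adjusted p = 1.84e-05). Ghr was lower in PDPN+BP3+ than in PDPN+BP3- cells, by -0.95 ± 0.18 (adjusted p = 0.00127), while the Igf1 arrays of these populations overlapped (-0.13 ± 0.17, 95% interval -0.50 to 0.24).

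Other imprinted growth genes were set beside Igf2. All 11 measured differed among the populations, against 45.3% of all genes. In lymph node, 9 were higher and 1 was lower in PDPN+BP3- than in PDPN- cells, and 0 were higher and 8 lower in PDPN+BP3+ than in PDPN+BP3- cells. Of all genes 13.4% were higher and 9.79% lower in the first of these comparisons, and 8.49% higher and 7.74% lower in the second. The list does not hold every imprinted gene. Nnat, named above, is outside it and went the other way, with means of 5.23 in lymph node PDPN+BP3- and 8.96 in PDPN+BP3+ cells. Zim1, a zinc finger gene, measured 7.98, 7.61 and 7.72 in lymph node PDPN+BP3- cells and 2.18, 2.38 and 2.32 in PDPN+BP3+ cells, a difference of -5.48 ± 0.17 (adjusted p = 1.99e-12). The transcription factor gene Plagl1 differed by -2.75 ± 0.19 (adjusted p = 2.3e-08), its fellow zinc finger gene Peg3 by -2.24 ± 0.14 (adjusted p = 4.33e-09) and Peg10 by -2.42 ± 0.22 (adjusted p = 4.48e-07). Mest was not called in that comparison (-0.35 ± 0.21, adjusted p = 0.354) and averaged 8.49 to 8.83 in the PDPN+ populations against 4.12 and 4.49 in the PDPN- ones.

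In thymus, 6 imprinted genes were higher and 2 lower (1 lower without thymus PDPN+BP3- replicate 1) in PDPN+BP3- than in PDPN- cells, against 28.5% of all genes called, with Zim1 at 4.53 ± 0.17 (adjusted p = 6.31e-12) and Mest at 4.45 ± 0.21 (adjusted p = 6.75e-11) among the higher. Dlk1, a Notch-related membrane protein gene, was lower, with a difference of -2.10 ± 0.27 (adjusted p = 1.25e-05). The cell cycle inhibitor gene Cdkn1c averaged 7.36 ± 0.26 in thymus PDPN+BP3- cells and 5.28 to 5.94 elsewhere. It lies in the same imprinted cluster as Igf2, and like Igf2 it was lower in lymph node than in thymus PDPN+BP3- cells (-1.42 ± 0.17, adjusted p = 1.95e-05). Unlike Igf2 it was not lowest in lymph node PDPN+BP3+ cells. Its mean there was 5.70, against 5.94 in PDPN+BP3- and 5.28 in PDPN- cells of that organ.

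A row named for Mir675, a microRNA within the noncoding H19 gene close to Igf2, was examined after its values were seen. In thymus its means were 9.20 (PDPN+BP3-) and 4.73 (PDPN-). In lymph node they were 6.36 (PDPN+BP3-), 5.72 (PDPN-) and 3.34 (PDPN+BP3+). The highest and the lowest population were thus those of Igf2, and the largest gap to the Igf2 profile was 1.47, with 13 genes closer. It differed between PDPN+BP3- and PDPN- cells by 4.47 ± 0.25 in thymus (adjusted p = 5.91e-10) and by 0.65 ± 0.25 in lymph node (adjusted p = 0.0793), with an interaction term of -3.82 ± 0.35 (adjusted p = 2.16e-06). Which RNA its probes read is not stated in the sources used here. Mir483, next to Igf2 in gene order, averaged 3.96 to 4.44 and Igf2os 3.14 to 3.29, and neither passed the F test (adjusted p = 0.0805 and 0.819). Genes were ordered by start position, so a gene listed next to Igf2 can lie within it. A further row annotated to both Igf2os and Igf2 averaged 3.63 to 4.24 and was left out because it has several symbols.

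**Figure D4:**
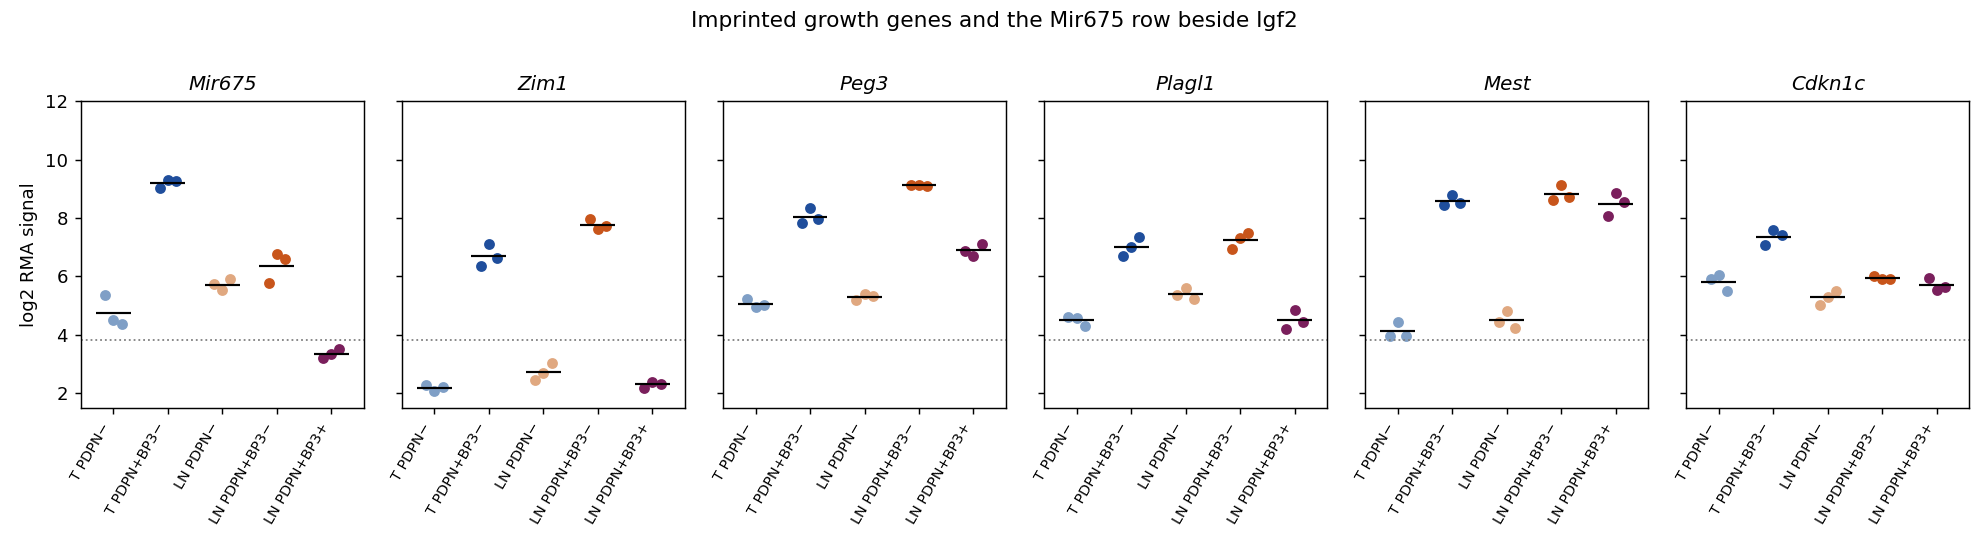
Log2 RMA signal (y axis) of the Mir675 row and 5 imprinted growth genes in the 5 populations (x axis; T, thymus; LN, lymph node); points are arrays, black bars are means of 3 arrays and the dotted line is the table median of 3.8. The Mir675 row is highest in thymus PDPN+BP3- cells (mean 9.20), Zim1 is high only in the PDPN+BP3- populations (6.70 and 7.77, against 2.17 to 2.72), and Mest is high in all 3 PDPN+ populations.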

How the data were processed

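The deposited values were log2 RMA signals of Affymetrix Mouse Gene 1.1 ST arrays, produced by the authors in Expression Console of Affymetrix, per the submitters' processing notes; the sources used here give no version. RNA was amplified with Ovation Pico WTA V2, per the labels' protocols. The log base was inferred from the values (1.07 to 12.07). Of 24758 transcript clusters, 20844 had 1 symbol, 1735 several and 2179 none. For 1230 genes with more than 1 cluster, the one with the highest mean was kept, which left out 2126. RMA fits all probes of a cluster together, so isoforms cannot be told apart.

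A model with 1 mean per population over all 15 arrays was fitted to 18718 genes with limma 3.58.1 in R 4.3.3, with empirical Bayes moderation (no trend; 10 residual and 5.5 prior degrees of freedom) and Benjamini-Hochberg adjustment over all genes of a comparison. No filter on low values was applied, so all 10 members entered every test. The number of arrays limits the precision. The scripts were tested on simulated data. Members and gene lists were chosen with earlier results of these data known, and a list is described by counts and medians only. The text names all members, up to 4 genes per list and comparison with the smallest adjusted p, and the 3 profiles nearest to each wide-ranging member; other list members were named after their values were seen. Promoters were matched by symbol to RefSeq (GRCm38.p6): all 10 members matched, with 14 starts. Lists of B cell, myeloid and red blood cell markers were also measured: 0 of 4, 1 to 2 of 8 and 0 of 2 markers exceeded the table median in a population. Alternatives were other normalisations, a filter, other priors, other rows per gene, fewer arrays and a replicate block.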

Additional observations from a re-analysis of the deposited data

Results flagged for a closer look

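6 results were taken up because PDPN+BP3- minus PDPN- cells was not the same in lymph node and thymus by the interaction term of limma (n = 3 arrays per population). The term was -1.25 for Igf2 and -1.42 for Igfbp6, whose differences were positive in both organs and smaller in lymph node. It was -0.64 for Igf2r, with a difference of 0.60 in thymus and -0.04 in lymph node. It was -1.41 for Igfbp2, whose difference was called in thymus (0.89) and not in lymph node (-0.52). It was 0.69 for Igf1r and 0.93 for Igfbp4, whose differences were larger in lymph node. Of these, Igf2, Igf2r and Igfbp6 were called in every alternative run, and Igf1r, Igfbp2 and Igfbp4 were not. The terms of Igfbp6 and Igfbp2 involve thymus PDPN- means below the table median, which need not stand above background.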

How the results depend on the processing

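No log2 difference of a member turned its sign among those called. Over 70 differences and 7 alternatives (2 normalisations, a filter, a prior, the mean of all rows per gene, a replicate block, and only the arrays of the populations compared), 476 of 490 values kept their side of the threshold in the same direction, 11 lost the call and 3 gained it; leaving out 1 array gave 1012 of 1050 unchanged, 33 lost and 5 gained. Sign changes of differences not called on either side are counted as unchanged. Leaving out 1 array, the members called ranged from 6 to 7 for PDPN+BP3- against PDPN- in thymus, 6 to 6 in lymph node, 9 to 9 for PDPN+BP3+ against PDPN-, 5 to 5 for PDPN+BP3+ against PDPN+BP3-, 3 to 5 for the organs in PDPN+BP3- and 3 to 4 in PDPN- cells, and 9 to 9 for any difference. For the interaction they ranged from 3 to 6, and were 3 without thymus PDPN- replicate 1 or lymph node PDPN- replicate 3, where Igf1r, Igfbp2 and Igfbp4 were lost. The term of Igf1r was also lost after quantile (adjusted p = 0.115) and cyclic loess normalisation (0.179), and that of Igfbp4 (0.0677 and 0.0852). Igfbp6 gained a call between the PDPN+BP3- populations after cyclic loess normalisation (-0.51, adjusted p = 0.024). The count of all genes called, both directions together, moved by at most 1.5 times in each comparison. Counts in 1 direction moved by more. After cyclic loess normalisation, lower calls in the thymus comparison went from 3415 to 2211, higher and lower calls between the PDPN+BP3- populations from 2215 to 1332 and from 990 to 1584, and interaction terms above and below 0 from 1623 to 862 and from 758 to 1215. After quantile normalisation, terms above 0 were 1064.

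With the replicate number as a block, the interaction kept 5 of 6 members (Igf1r was lost, adjusted p = 0.0582) and 9 members differed among the populations; the block changed no other call. Over both organs, 6 of 30 same-numbered pairs of arrays correlated above 0.1 in their deviations (median -0.01), and 8 of 15 arrays correlated best with their own number. Within the lymph node, same-numbered pairs gave 0.29, -0.03 and 0.18 (PDPN- with PDPN+BP3-) and 0.15, 0.07 and 0.06 (PDPN+BP3+ with PDPN+BP3-). For PDPN- with PDPN+BP3+ they gave -0.02, 0.08 and -0.07, and in thymus -0.16, -0.17 and -0.14. No chance rate was set beside these values, and whether same-numbered arrays of an organ were handled together was not tested.

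Signals below the table median (Igf2 and Igfbp6 in PDPN+BP3+ cells, Igfbp6 and Igfbp2 in thymus PDPN- cells) need not stand above background, so the size of those differences is bounded by the array, and no ratio of RNA was derived.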
